A study of Mus musculus with 6 samples.

Results

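Acute-phase and neutrophil genes were followed in transplanted mouse hearts: Saa3, Hp and Lcn2, which encode secreted acute-phase proteins, S100a8, S100a9, Mmp8 and Ngp, which encode proteins stored in neutrophils, the receptors Csf3r and Cxcr2, and the chemokine Cxcl1. The genes were taken by name, and each of the 10 had 1 probe set of its own among the 22690 on the array, so 10 genes of the 12393 measured are described. Total RNA was hybridised to 1 array for each of 6 groups. ABH4 was a cardiac allograft from mice given 4-amino tetrahydrobiopterin, and BH4 one from mice given tetrahydrobiopterin, both at 50 mg/kg every 8 h. CsA was an allograft from mice given cyclosporin A at 15 mg/kg every 24 h, and NIL one from mice given N-imino ethyl-L-lysine at 5 mg/kg every 8 h. Allogen was an untreated allograft and Syngen an untreated syngeneic graft. The labels give no mouse strain, age or day of removal, and do not say whether several grafts were pooled on an array. With no replicate in any group there is no spread against which a difference can be tested, so every difference below is a description of these 6 arrays.

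The acute-phase response is the set of secreted proteins that cells make more of during inflammation, mainly under interleukin-6, interleukin-1 and tumour necrosis factor. The liver is the main source, but SAA3, haptoglobin and lipocalin-2 are also made outside it, in macrophages, epithelium and fat among others. Neutrophils are short-lived phagocytes that granulocyte colony-stimulating factor releases from the bone marrow and that chemokines such as CXCL1 draw into tissue through CXCR2. They reach a heart graft early, with reperfusion, and again with rejection.

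Values are the deposited signal intensities after each array was brought to a common median. Signals under 34.8, the 30th percentile of all rescaled values, were treated as being at a floor, and a fold against a gene at the floor is a lower bound. Median signals as deposited ran from 77.7 to 88.5. Actb probe sets at the 3' end gave 1.04 to 1.13 times the signal of those at the 5' end. For Gapdh this ratio was 0.79 on CsA, the lowest array, and between 0.85 and 0.88 on the others. By these ratios the arrays were close to each other in RNA integrity. Of the 6 arrays BH4 stood apart by transcripts of salivary secretions: the summed signal of 11 salivary and glandular epithelial markers was 12951 on BH4 and between 414 and 767 on the other allografts, and 478 on Syngen. Of the 10 genes 9 were above the floor on every array, and Cxcr2 was above it on NIL alone.

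The markers that define neutrophils were faint. Ly6g was not measured by a probe set of its own. Camp and Ctsg, which encode antimicrobial and protease components of neutrophil granules, and Cd177, a neutrophil surface protein, were at the floor on all 6 arrays. Elane, neutrophil elastase, was at the floor on 5 and had a signal of 48.0 on Syngen. Mpo, myeloperoxidase, had signals between 58.9 and 92.9 on the allografts and 106 on Syngen. S100a8, S100a9 and Csf3r are also transcribed in monocytes, so the gene set is called by its genes and not by a cell type here. The 12 macrophage and monocyte markers were all above the floor on every array, with a summed signal between 13448 on CsA and 19710 on BH4 among the allografts and of 12297 on Syngen.

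**Figure D1:**
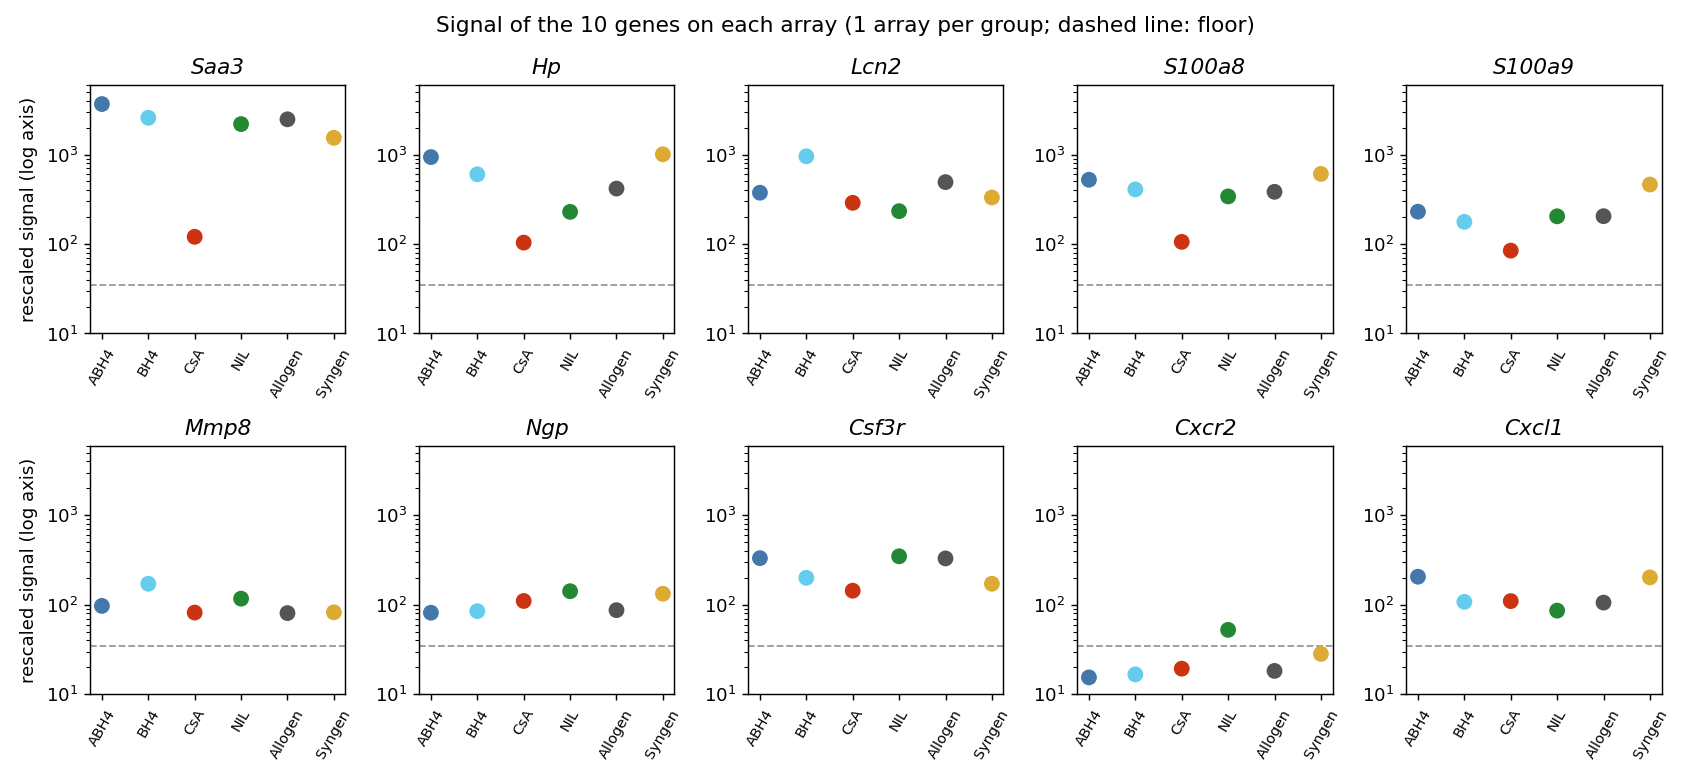
Rescaled signal (log axis) of the 10 genes on the 6 arrays, with 1 point per array and the floor of 34.8 as a dashed line. Saa3 lies between 1538 and 3669 on 5 arrays and at 120.3 on CsA, and Cxcr2 is above the line on NIL alone.

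Saa3 encodes serum amyloid A3, the amyloid A protein that inflamed tissues other than liver make. Its signal was 3669 on ABH4, 2576 on BH4, 120.3 on CsA, 2191 on NIL and 2476 on Allogen, against 1538 on Syngen. CsA stood alone at the low end, 12.8-fold below the next array, Syngen. The other 5 arrays, taken in order of signal, lay within 1.5-fold of their neighbours. The probe sets of Saa1 and Saa2, the liver forms, were at the floor on every allograft, and Saa1 had a signal of 54.4 on Syngen.

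Hp encodes haptoglobin, which binds free haemoglobin. Its signal was 937 on ABH4, 601 on BH4, 104 on CsA, 229 on NIL and 417 on Allogen, against 1007 on Syngen. The syngraft was the highest array, ABH4 came within 1.07-fold of it, and CsA was 9.71-fold below it. Of the liver acute-phase genes Orm1, Orm2, Fga, Fgb, Fgg, Apcs and Itih3 were at the floor on all 6 arrays. Others were above it on every array: Cp had signals between 526 and 985, Hamp between 49.5 and 97.9 and Crp between 36.6 and 55.6.

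Lcn2 encodes lipocalin-2, which withholds iron from bacteria by binding their siderophores. Its signal was 375 on ABH4, 956 on BH4, 289 on CsA, 233 on NIL and 492 on Allogen, against 331 on Syngen. BH4 was 1.94-fold above the next array, and NIL was lowest. Lcn2 is also made in glandular epithelium. The salivary marker Bpifa2 had a signal of 5806 on BH4 and at most 56.2 on the other arrays, and the part of such tissue in the Lcn2 signal was not tested.

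S100a8 and S100a9 encode the subunits of calprotectin, a calcium- and zinc-binding heterodimer that fills the cytosol of neutrophils and is present in monocytes. S100a8 had a signal of 523 on ABH4, 408 on BH4, 106 on CsA, 340.4 on NIL and 383 on Allogen, against 607 on Syngen. S100a9 had a signal of 229.8 on ABH4, 177 on BH4, 84.3 on CsA, 204 on NIL and 205 on Allogen, against 462 on Syngen. Both were highest on Syngen and lowest on CsA, with ABH4 highest of the allografts. S100a8 and Hp put the 6 arrays in the same order, and S100a9 differed from that order in the place of BH4. The order rests in part on small steps: for S100a8, BH4 was 1.06-fold above Allogen and Allogen 1.13-fold above NIL. After quantile normalization S100a8 was no longer lower on NIL than on Allogen. The S100a8 probe set carries the suffix that the array maker gives to probe sets that can match transcripts of more than 1 gene.

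Mmp8 encodes neutrophil collagenase and Ngp neutrophilic granule protein, both made while neutrophils mature in the marrow. Mmp8 had a signal of 97.1 on ABH4, 172 on BH4, 81.8 on CsA, 117 on NIL and 80.7 on Allogen, against 82.3 on Syngen. Ngp had a signal of 81.5 on ABH4, 84.9 on BH4, 110.2 on CsA, 142 on NIL and 87.0 on Allogen, against 133 on Syngen. CsA did not stand apart at the low end for either, and their highest and lowest arrays were 2.13-fold and 1.74-fold apart, where those of S100a8 and S100a9 were 5.75-fold and 5.48-fold apart.

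Csf3r encodes the receptor of granulocyte colony-stimulating factor. Its signal was 332 on ABH4, 200.1 on BH4, 144 on CsA, 348 on NIL and 329 on Allogen, against 172 on Syngen. ABH4, NIL and Allogen lay close together at the top, and BH4, Syngen and CsA below them after a step of 1.65-fold. Cxcr2, the receptor of CXCL1 and its relatives, had a signal of 52.4 on NIL and was at the floor elsewhere, so NIL was at least 1.51-fold above each of the other arrays. Cxcl1 itself had a signal of 206 on ABH4, 108 on BH4, 109.8 on CsA, 86.0 on NIL and 106 on Allogen, against 202 on Syngen. ABH4 and Syngen formed the upper pair of Cxcl1 and the other 4 arrays the lower group, with a step of 1.84-fold between them.

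Upstream sequence is shown for the genes with at least 4-fold between their highest and lowest array and a promoter in RefSeq's table, since these carry the differences described below. That range was reached by 5 genes: Saa3, Hp, Lcn2, S100a8 and S100a9. A promoter was matched by symbol for 9 of the 10 genes. The 250 bases before the annotated start are printed 5′ to 3′ on the strand of the gene (RefSeq, GRCm38.p6), with capitals for matches to 3 motifs of factors that inflammatory cytokines activate. The motifs were TTGCNNAA for C/EBP, TTCNNNGAA for STAT and the consensus of NF-kappaB, searched on both strands.
Saa3 promoter, chr7:46715677-46715926, minus strand: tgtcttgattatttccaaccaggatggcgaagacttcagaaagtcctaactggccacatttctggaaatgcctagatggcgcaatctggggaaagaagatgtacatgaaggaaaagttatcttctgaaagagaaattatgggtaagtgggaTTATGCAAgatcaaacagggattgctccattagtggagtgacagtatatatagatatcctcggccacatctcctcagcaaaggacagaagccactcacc
Lcn2 promoter, chr2:32387740-32387989, minus strand: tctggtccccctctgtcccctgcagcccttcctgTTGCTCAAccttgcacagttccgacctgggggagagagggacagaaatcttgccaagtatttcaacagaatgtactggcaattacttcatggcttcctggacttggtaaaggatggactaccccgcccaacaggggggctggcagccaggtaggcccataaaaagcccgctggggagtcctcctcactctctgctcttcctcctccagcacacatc
S100a8 promoter, chr3:90668821-90669070, plus strand: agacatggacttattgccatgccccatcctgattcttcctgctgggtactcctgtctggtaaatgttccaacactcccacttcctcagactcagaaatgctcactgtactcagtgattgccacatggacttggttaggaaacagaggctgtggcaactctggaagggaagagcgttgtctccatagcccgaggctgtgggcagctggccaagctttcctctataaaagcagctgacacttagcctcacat
S100a9 promoter, chr3:90695722-90695971, minus strand: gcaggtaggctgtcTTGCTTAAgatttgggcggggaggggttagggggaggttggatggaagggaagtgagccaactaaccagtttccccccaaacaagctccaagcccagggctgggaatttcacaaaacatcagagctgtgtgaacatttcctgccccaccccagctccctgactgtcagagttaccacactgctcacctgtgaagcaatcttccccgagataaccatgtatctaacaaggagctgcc
The capitals of Saa3, Lcn2 and S100a9 are each 1 C/EBP match, which starts 99, 216 and 236 bases before the annotated start. S100a8 had no match to any of the 3 motifs in this window. Of the 9 promoters 5 held a C/EBP match (Saa3, Lcn2, S100a9, Mmp8 and Ngp), where 9.57% of the 32536 distinct windows of that length did. None of the 9 held the STAT motif, which 7.04% of all windows did. Cxcl1 alone held NF-kappaB matches, GGGAATTTCC and, shifted by 1 base on the other strand, GGAATTTCCC, and 3.92% of all windows had one. A match describes the letters only. Of the genes with a C/EBP match, Saa3 was 20.6-fold, S100a9 2.43-fold and Lcn2 1.71-fold lower on CsA than on Allogen. Ngp was 1.27-fold and Mmp8 1.01-fold higher. Without a match, S100a8 was 3.63-fold and Csf3r 2.29-fold lower, Cxcl1 was 1.04-fold higher, and Cxcr2 was at the floor on both. The part of C/EBP in any difference was not tested.

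The comparison of CsA with the untreated allograft describes the graft under a calcineurin inhibitor, which blocks T cell activation. Of the 10 genes 5 were at least 2-fold lower on CsA and 0 higher, where 4.06% of all genes were lower and 3.21% higher (503 and 398 genes, or 327 and 599 on the deposited values without rescaling). The 10 genes were chosen with earlier results of these data known, so here and below such counts are descriptions only. Saa3 was 20.6-fold lower, with signals of 120.3 on CsA and 2476 on Allogen. This was the lowest log2 difference of the 12393 genes (-4.36). Hp was 4.02-fold lower, S100a8 3.63-fold, S100a9 2.43-fold and Csf3r 2.29-fold. Lcn2 had a log2 difference of -0.77. Ngp (0.34), Cxcl1 (0.06) and Mmp8 (0.02) stayed close to the untreated allograft, and Cxcr2 was at the floor on both arrays. The median of the 10 genes was -0.98 and that of all genes 0.00. In whole tissue, fewer cells of a type and less RNA per cell cannot be told apart. The summed T cell markers were 170 on CsA and 1677 on Allogen, and the fibroblast markers 24711 and 5012. The macrophage markers summed to 13448 on CsA and 15953 on Allogen, but single markers differed in both directions. Msr1, a scavenger receptor, had 167 on CsA and 838 on Allogen, and Fcgr1, an Fc receptor, 349 and 756. Cx3cr1, the fractalkine receptor, had 195 on CsA and 42.1 on Allogen, and Mrc1, the mannose receptor, 462 and 226. The part of these cell types in the differences was not tested.

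The same CsA array can be set beside the syngraft, which met no donor difference. Of the 10 genes 4 were at least 2-fold lower on CsA than on Syngen and 0 higher, where 1.42% of all genes were lower and 2.28% higher. Saa3 was 12.8-fold lower, Hp 9.71-fold, S100a8 5.75-fold and S100a9 5.48-fold, with signals of 120.3, 104, 106 and 84.3 on CsA. Ordered by log2 difference from the lowest, these genes took places 2, 3, 7 and 8 among the 12393. With a floor at the 10th percentile, which lets differences between dim signals count, the places were 2, 6, 68 and 78. Csf3r (-0.26), Lcn2 (-0.20) and Mmp8 (-0.01) stayed close to the syngraft, Ngp had -0.27 and Cxcl1 -0.88. The median of the 10 genes was -0.57 and that of all genes 0.00. The 5 measured adipocyte markers summed to 1980 on CsA and 2484 on Syngen, a sum led by Fabp4, with Adipoq, Lep and Cidec at the floor on all 6 arrays. The macrophage markers summed to 13448 on CsA and 12297 on Syngen, and the part of either list in these differences was not tested.

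**Figure D2:**
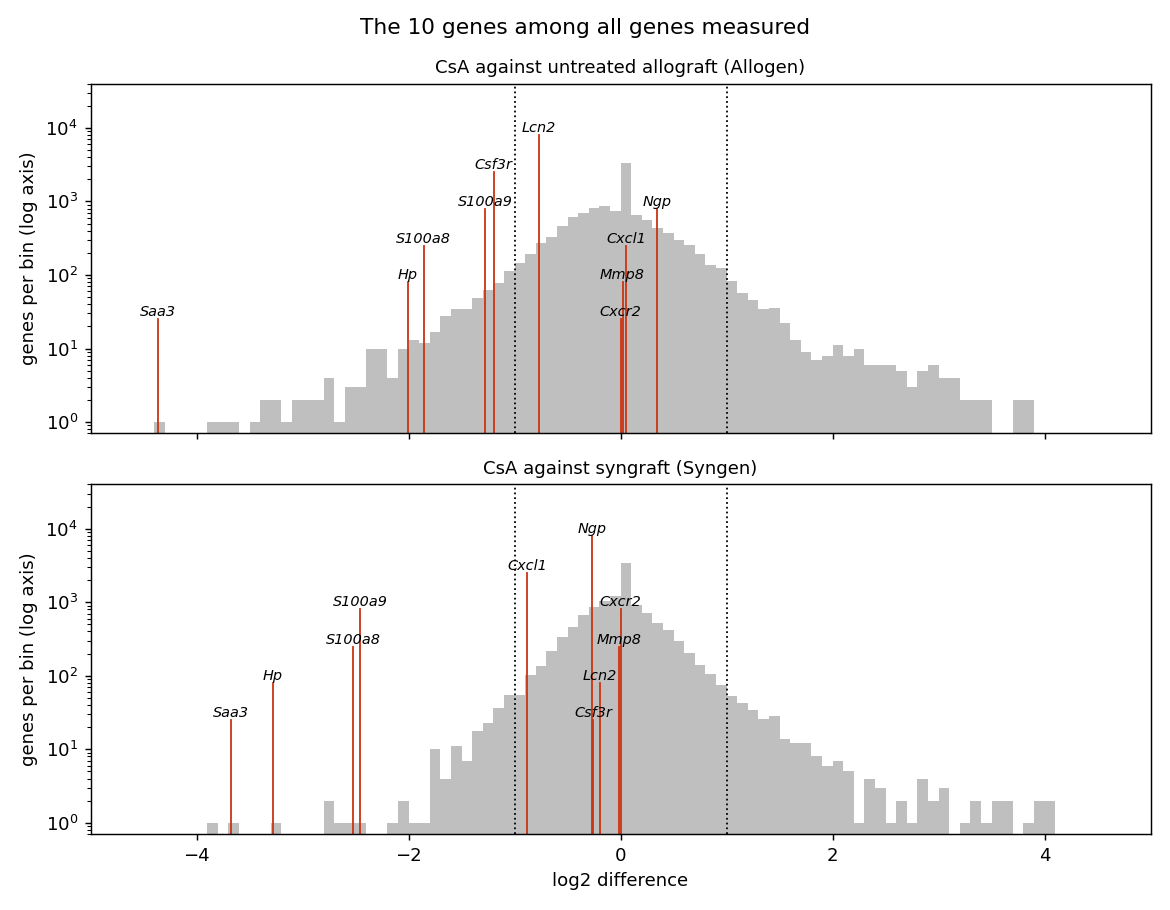
Histogram of the log2 differences of all 12393 genes (grey, log axis of genes per bin) for CsA against Allogen above and CsA against Syngen below, with the 10 genes as red lines and 2-fold as dotted lines. Saa3 lies at -4.36 against Allogen and at -3.68 against Syngen, where Hp, S100a8 and S100a9 lie next to it between -3.28 and -2.46.

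Set against the syngraft, the untreated allograft showed no common direction among the 10 genes. At least 2-fold lower on Allogen were 2 of the 10 and 0 were higher, where 4.81% of all genes were lower and 6.87% higher (596 and 852 genes, or 860 and 633 on the deposited values without rescaling). Hp was 2.42-fold lower and S100a9 2.26-fold lower on Allogen. Cxcl1 (-0.94), S100a8 (-0.66) and Ngp (-0.61) had negative log2 differences, and Cxcl1 was more than 2-fold lower without rescaling (-1.12) and after quantile normalization (-1.04). Csf3r (0.94), Saa3 (0.69) and Lcn2 (0.57) had positive ones, and Mmp8 had -0.03. The median was -0.32 and that of all genes 0.00. The acute-phase genes were thus split, with Hp lower and Saa3 and Lcn2 higher on the allograft. The summed T cell markers were 1677 on Allogen and 92.6 on Syngen, and the fibroblast markers 5012 and 28277, and their part in these differences was not tested.

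The 2 pteridines were given at the same dose and interval. ABH4 is the 4-amino form of BH4, which is the natural cofactor of the nitric oxide synthases. With ABH4, 1 of the 10 genes was at least 2-fold higher than on Allogen and 0 lower, where 0.694% of all genes were higher and 0.282% lower. Hp was 2.25-fold higher and Cxcl1 1.95-fold higher. The log2 difference of Saa3 was 0.57, of S100a8 0.45, of Mmp8 0.27, of S100a9 0.17, of Csf3r 0.01, of Ngp -0.10 and of Lcn2 -0.39. The median was 0.22. Hp and Cxcl1 on ABH4 thus came within 1.07-fold and 1.02-fold of the syngraft, and Lcn2, S100a8 and Mmp8 within 1.18-fold. Other genes did not: against Syngen, Saa3 was 2.39-fold and Csf3r 1.93-fold higher on ABH4. S100a9 was 2.01-fold and Ngp 1.63-fold lower, and Cxcr2 was at the floor on both arrays.

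With BH4, 1 of the 10 was at least 2-fold higher than on Allogen and 0 lower, where 1.54% of all genes were higher and 0.42% lower. Mmp8 was 2.13-fold higher, with signals of 172 on BH4 and 80.7 on Allogen, and Lcn2 1.94-fold higher. With log2(signal + 16) and no floor the log2 difference of Mmp8 was 0.96, under 2-fold. Hp had a log2 difference of 0.53 and Csf3r one of -0.72. The other members with a measured value on both arrays lay between -0.21 (S100a9) and 0.09 (S100a8), and the median was 0.04. The summed salivary markers were 12951 on BH4 and 414 on Allogen, and the fibroblast markers 18721 and 5012, and their part in these differences was not tested.

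This was the 1 pair of related compounds, and with 1 array each its differences have no interval. At least 2-fold lower on ABH4 than on BH4 was 1 of the 10, and 0 were higher, where 0.96% of all genes were lower and 0.46% higher. Lcn2 was 2.55-fold lower on ABH4, with signals of 375 and 956 on BH4, the array with salivary transcripts. Cxcl1 was 1.91-fold higher on ABH4, with signals of 206 on ABH4 and 108 on BH4. Csf3r (0.73), Hp (0.64), Saa3 (0.51), S100a9 (0.38) and S100a8 (0.36) had positive log2 differences, Mmp8 had -0.82 and Ngp -0.06. The median was 0.37.

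NIL inhibits inducible nitric oxide synthase. At least 2-fold lower on NIL than on Allogen was 1 of the 10 and 0 were higher, where 0.791% of all genes were lower and 1.33% higher (98 and 165 genes, or 53 and 269 without rescaling). Lcn2 was 2.11-fold lower, with signals of 233 on NIL and 492 on Allogen, and it stayed within 2-fold without rescaling and after quantile normalization. Hp had a log2 difference of -0.87, Ngp 0.70, Mmp8 0.54 and Cxcl1 -0.30. Saa3 (-0.18), S100a8 (-0.17), S100a9 (0.00) and Csf3r (0.08) stayed close to the untreated allograft. After quantile normalization the small differences of Saa3, S100a8 and S100a9 were positive (0.01, 0.01 and 0.12), and that of S100a9 was so without rescaling too (0.14). The median was -0.09. All 4 treatments are set against the same untreated array, and so share whatever is particular to it.

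**Figure D3:**
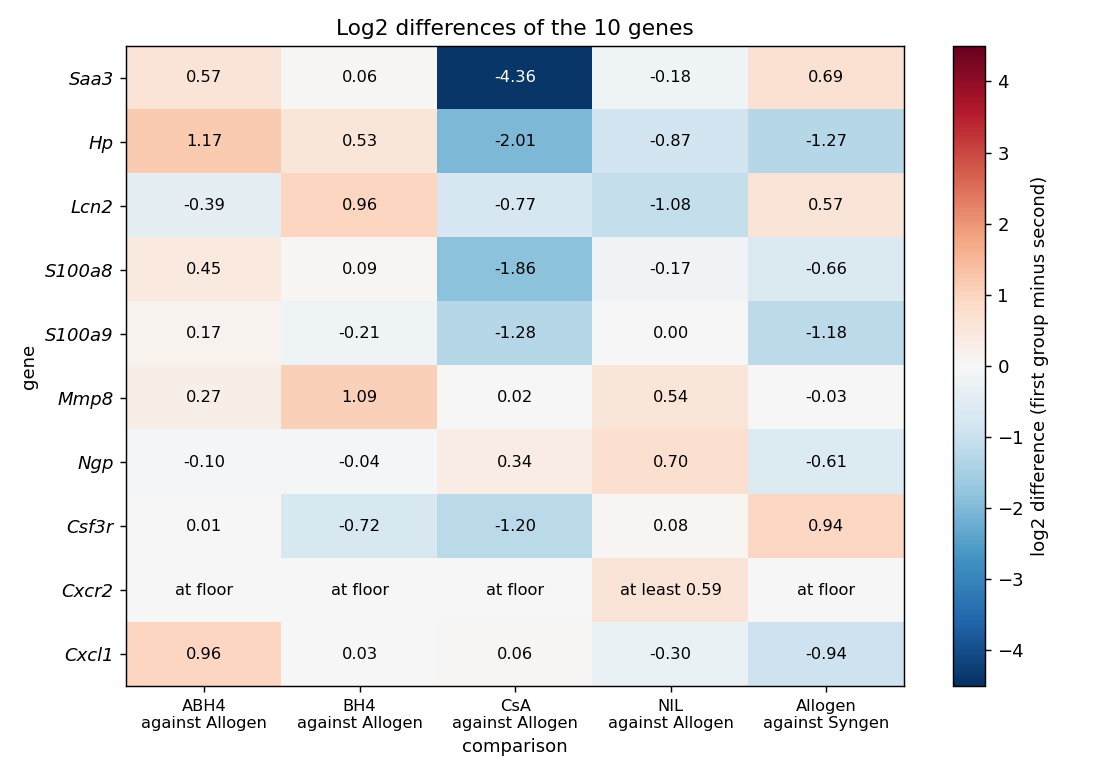
Log2 differences of the 10 genes in 5 comparisons, first group minus second, with 1 array per group. The darkest cell is Saa3 on CsA against Allogen (-4.36), and cells marked at floor had a signal under 34.8 on both arrays.

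Related genes were read from 5 lists with 97 entries, of which 80 had a probe set of their own. The list counts below stand beside the shares over all genes, which were 6.87% higher and 4.81% lower on Allogen against Syngen and 3.21% higher and 4.06% lower on CsA against Allogen. The first list held cytokines that drive the acute-phase response, their receptors and factors downstream of them. Of its 17 measured genes 6 were at least 2-fold higher on Allogen than on Syngen and 1 was lower (median 0.36). The lower gene was Il1r1, an interleukin-1 receptor, at least 2.81-fold lower, with 97.8 on Syngen and at the floor on Allogen. Il6, interleukin-6, was 5.32-fold higher, Socs3, its feedback inhibitor, 3.18-fold and Cebpb, a transcription factor of the response, 3.09-fold. On CsA 5 of the 17 were at least 2-fold lower than on Allogen and 0 higher (median -0.44). Il6 was 5.21-fold lower, Il1b, interleukin-1 beta, 2.88-fold and Tnf, tumour necrosis factor, 2.57-fold. Il6 had a signal of 410 on ABH4, 176 on BH4, 83.3 on CsA, 368 on NIL and 434 on Allogen, against 81.7 on Syngen. Il6 had similar signals on CsA and Syngen, and Saa3 was 12.8-fold lower on CsA than on Syngen. The part of interleukin-6 in the Saa3 signals was not tested.

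Other acute-phase genes differed in both directions between CsA and Allogen. Of 23 measured 8 were at the floor on all arrays. On CsA 3 were at least 2-fold higher than on Allogen and 1 lower (median 0.00). Steap4, a metalloreductase, was 3.81-fold higher, Serpina3n, a protease inhibitor, 2.92-fold and Lbp, which binds lipopolysaccharide, 2.76-fold. The gene that was lower was Il1rn, the interleukin-1 receptor antagonist, by 2.66-fold. The metallothioneins Mt1 and Mt2 stayed within 2-fold, with signals of 2391 and 1842 on CsA and of 4523 and 3396 on Allogen. Serpina3n had a signal of 536 on ABH4, 718 on BH4, 677 on CsA, 145 on NIL and 232 on Allogen, against 1000.0 on Syngen. It was low where the summed fibroblast markers were low: these were 9948 on ABH4, 18721 on BH4, 24711 on CsA, 4541 on NIL and 5012 on Allogen, against 28277 on Syngen. The part of fibroblast content in Serpina3n was not tested. On Allogen 3 of the 23 were higher than on Syngen and 3 lower (median 0.00): Il1rn was 8.64-fold higher, and Steap4 and Serpina3n were 4.60-fold and 4.31-fold lower. With ABH4, Steap4 was 3.38-fold above Allogen. With BH4, Serpina3n was 3.10-fold and Lbp 3.07-fold above it.

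Some genes on the list of neutrophil surface and lineage genes were lower on CsA than on Allogen as well. Of 15 measured, 2 of them at the floor on all arrays, 7 were at least 2-fold lower on CsA than on Allogen and 0 higher (median -0.997), and 8 were higher and 1 lower on Allogen than on Syngen (median 1.27). Fpr2, a formyl peptide receptor, was 9.18-fold lower on CsA, Clec4e, a C-type lectin, 5.00-fold and Csf2rb, the shared beta chain of cytokine receptors, 4.71-fold. Between Allogen and Syngen Clec4e was 8.09-fold higher on Allogen, Fpr2 7.77-fold and Itgb2, the beta-2 integrin, 6.25-fold. On Fpr2 the signals were 1047 on ABH4, 899 on BH4, 114 on CsA, 779.8 on NIL and 1043 on Allogen, against 134 on Syngen. The syngraft was thus low in Fpr2 and highest in S100a8. Monocytes and macrophages also carry these receptors.

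Of 14 granule and oxidase genes 5 were at least 2-fold higher on Allogen than on Syngen and 1 lower (median 0.03), and on CsA 1 was higher and 3 lower than on Allogen (median 0.00). Chil3, a chitinase-like protein also of macrophages, was 3.70-fold and Ncf1, an oxidase subunit, 3.52-fold higher on Allogen, and Mmp9, gelatinase B, was 5.78-fold lower. Ncf1 was 3.27-fold lower and Cyba, an oxidase subunit, 2.28-fold lower on CsA, and Mmp9 2.25-fold higher. Mmp9 had a signal of 109 on ABH4, 97.9 on BH4, 135 on CsA, 66.2 on NIL and 59.8 on Allogen, against 346 on Syngen, which was the highest array for Mmp9 as for S100a8, S100a9 and Hp. Ltf, lactoferrin, was 6.50-fold higher on BH4 than on Allogen and 3.15-fold higher on NIL, and Pglyrp1, a peptidoglycan-binding protein, at least 3.98-fold higher on BH4. Ltf is also a protein of saliva, and the part of the salivary transcripts on BH4 was not tested.

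Among 11 chemoattractants and growth factors 4 were at least 2-fold higher on Allogen than on Syngen and 2 lower (median 0.01), and on CsA 1 was higher and 3 were lower than on Allogen (median 0.00). Ccl3, a chemokine of macrophages and T cells, was 15.2-fold higher on Allogen than on Syngen and 12.4-fold lower on CsA than on Allogen. Ltb4r1, the leukotriene B4 receptor, was at least 4.71-fold higher and at least 4.71-fold lower in the same comparisons. Ccl2, the monocyte chemoattractant, was 3.29-fold higher on Allogen than on Syngen, and Pf4, a platelet chemokine, was 2.96-fold higher on CsA than on Allogen. Csf3, the ligand of the Csf3r receptor, had signals of 44.4 on ABH4, 53.0 on BH4 and 35.0 on Allogen and was at the floor on CsA, NIL and Syngen. Cxcl5, like Cxcl1 a CXCR2 ligand, had its highest signals on the same 2 arrays as Cxcl1, at 136 on ABH4 and 143 on Syngen, and between 60.7 and 82.4 on the others.

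**Figure D4:**
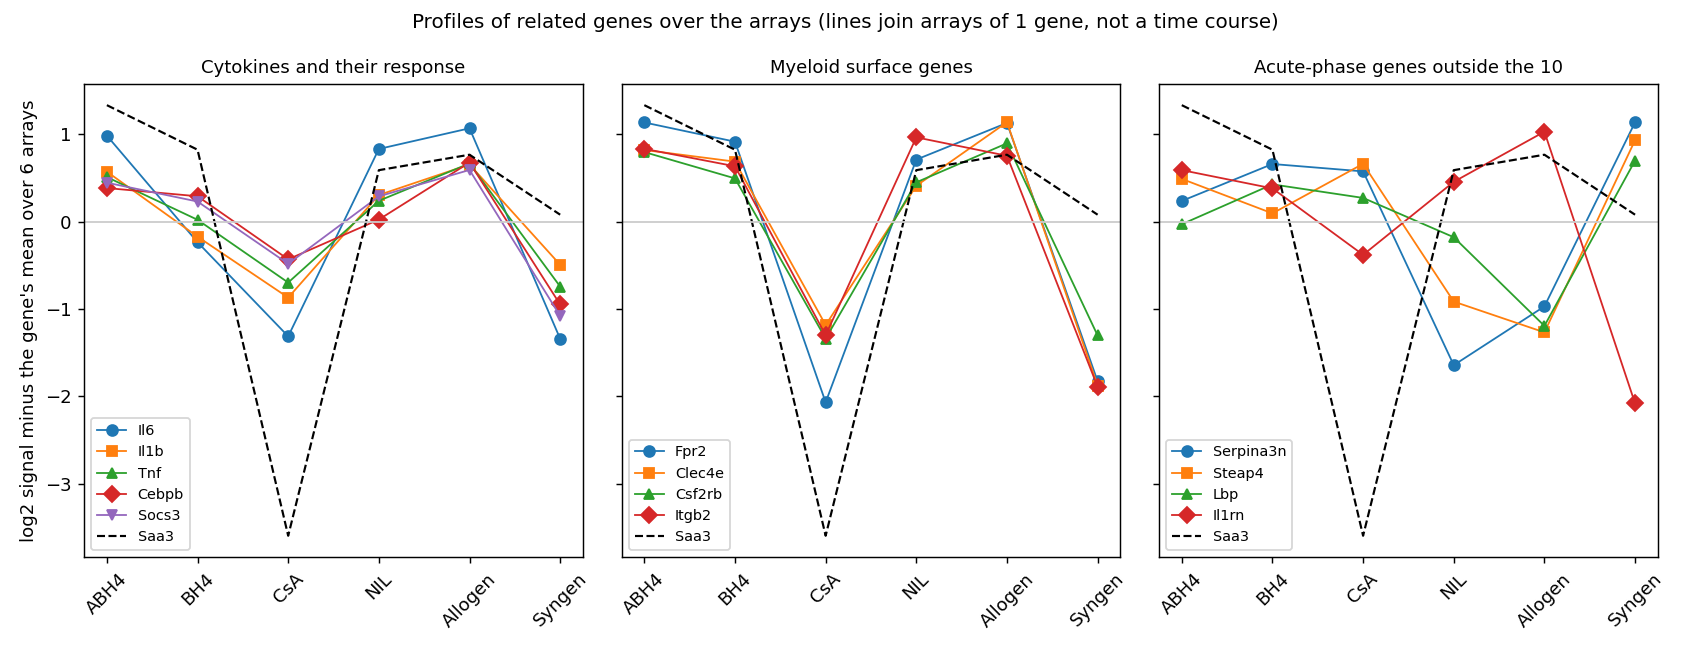
Log2 signal of related genes on the 6 arrays, each minus its own mean over the arrays, with Saa3 as a dashed line. Fpr2 and Il6 are low on both CsA and Syngen, where Saa3 is low on CsA alone, and Serpina3n is lowest on NIL.

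The genes most like a member were found by Pearson's r of log2 signal over the 6 arrays, among 447 genes outside the set with at least 4-fold between their highest and lowest array. For Saa3 they were Carns1 (r = 0.97), Zbtb7b and Ubac2 (both 0.95), Ifitm1 (0.94) and 5031439G07Rik (0.92). Carns1 was also the most like S100a8 (0.89). Myl1, a myosin light chain, was the most like Hp (0.80) and S100a9 (0.90). The others for Hp were Carns1 (0.76), Myof (0.63), Ankrd2 (0.61) and 5031439G07Rik (0.60). For S100a8 they were Myl1 (0.77), Ubac2 (0.74), Zbtb7b and Myof (both 0.73), and for S100a9 Baiap2l1 (0.78), Kcnj14 (0.76), Cphx3 (0.74) and Carns1 (0.68). Each of these r rests on 6 points from the same arrays. For Lcn2 the nearest was Ggh (0.92), followed by 5 genes tied at 0.86 that were above the floor on BH4 alone, among them Smr3a, Amy1, Dnase1 and Cst10, of which Smr3a and Amy1 are on the salivary marker list. Without BH4 Lcn2 no longer had a 4-fold range, while the 5 genes nearest to Saa3 were the same. Centred on its mean over the arrays, Saa3 had -3.60 in log2 on CsA and 0.08 to 1.33 on the others. A high r with Saa3 thus mostly reflects a low signal on CsA, which leaving out BH4 does not change. Carns1 (19.5) and 5031439G07Rik (29.5) were at the floor on CsA.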

How the data were processed

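The deposited intensity values were 1 linear signal for each of 22690 probe sets on each of 6 arrays. The mean of each array after trimming 2% from each end was 200, so the authors had scaled the arrays before deposit. The scanner software and summarisation method are not given in the sources used here. Depth has no meaning for arrays, and their number limits the precision.

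The 64 control probe sets were set aside, and the medians of the remaining 22626 were made equal by a factor per array of -0.09 to 0.10 in log2. Signals under the 30th percentile (34.8) were set to it and log2 was taken. A gene took its brightest probe set among the 20380 listed for exactly 1 symbol. Left out were 691 probe sets with several symbols and 1555 with none. Genes were called by 2-fold differences, and no test was made with 1 array per group. Named genes outside the 10 are the 3 with the largest differences of at least 2-fold per list on Allogen against Syngen and CsA against Allogen, those at least 3-fold apart under another treatment, the 5 most like each wide-ranging member, and markers at the floor or bearing on a value. Mpo, Elane, Cxcl5, Csf3, Saa1, Saa2, Cp, Hamp, Crp, Mt1, Mt2, Msr1, Fcgr1, Cx3cr1 and Mrc1 were named after their values were seen. The members and lists were chosen with earlier results of these data known. The script was tested on simulated data. Python 3.11.15, numpy 2.4.6 and pandas 2.3.3 were used.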

Additional observations from a re-analysis of the deposited data

How the results depend on the processing

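Medians and counts of the 10 genes were recomputed on the deposited values without rescaling, after quantile normalization, with a floor at the 10th or at the 50th percentile, with each gene's probe sets averaged, and with log2(signal + 16) and no floor. Of 126 such values 121 kept within 1.5-fold of the value reported. Of these 121, 21 came from averaging probe sets, which could change nothing, as each of the 10 genes had 1 probe set. For a median near 0, a change of sign could also stay within that limit. Without rescaling 2 genes were at least 2-fold higher on ABH4 than on Allogen, as Cxcl1 joined Hp. With log2(signal + 16), 0 were higher on BH4, as Mmp8 was under 2-fold. On NIL against Allogen 0 were lower without rescaling and after quantile normalization, and 1 (Cxcr2) was higher with a floor at the 10th percentile. Single-gene differences moved by over 1.5-fold in 3 cases, all of Cxcr2. Saa3 on CsA against Allogen was lowest of all genes except with a floor at the 10th percentile, where it was in place 7, and with log2(signal + 16), where it was in place 2. With a floor at the 10th percentile S100a8 and S100a9 on CsA against Syngen were in places 68 and 78.

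The rescaling shifted differences between signals above the floor by 0.19 on Allogen against Syngen, by -0.19 on CsA against Allogen and by -0.15 on NIL against Allogen. Over these settings the numbers of all genes at least 2-fold higher and lower ran from 618 to 1295 and from 295 to 1378 on Allogen against Syngen, and from 181 to 1099 and from 327 to 896 on CsA against Allogen. They ran from 31 to 538 and from 3 to 440 with ABH4, from 95 to 719 and from 13 to 495 with BH4, and from 18 to 878 and from 29 to 485 with NIL, each against Allogen. On ABH4 against BH4 they ran from 14 to 491 and from 46 to 583, and on CsA against Syngen from 143 to 811 and from 56 to 699. Likeness without BH4, chosen after seeing the data, kept the 5 genes nearest to Saa3 and 4 of 5 for Hp, S100a8 and S100a9. CsA, the array on which these 4 genes were lowest, was still among the arrays used, so this says little about stability. No paired analysis was possible because each group had 1 array. Cxcr2 was limited by its signal, at the floor on 5 arrays.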
